A study of Mus musculus with 9 samples.

Results

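The immunity-related GTPases (IRGs) are interferon-induced proteins of mouse cells, and 6 of their genes were followed here by symbol: Irgm1, Irgm2, Igtp, Iigp1, Tgtp1 and Tgtp2. All 6 were listed in each library, among 17134 genes, and all 6 passed the filter on low values that left 14600 genes. RNA-seq had been performed on 9 bulk subcutaneous tumours of MC38, a mouse colon adenocarcinoma line, collected 20 days after implantation into C57BL/6 mice. Before implantation the cells of every group had been infected with lentivirus and selected with puromycin. Control cells carried a non-targeting shRNA (NTC), and the others carried 1 of the shRNAs against Gad1 named GAD1-SHA (shA) and GAD1-SHB (shB), with 3 tumours per group. The shRNA was borne by the implanted cells, so host cells in each tumour kept Gad1 intact. No source used here states the age or sex of the mice, or that each tumour had its own mouse. The p-values therefore describe only how far these libraries spread, which may in part be technical.

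IRGs act in cell-autonomous defence: interferon-gamma, and to a lesser degree type I interferon, switches them on, in part through IRF1, and they attack the membrane of vacuoles that hold parasites such as Toxoplasma. The effectors, Iigp1 (also Irga6) and the Tgtp proteins (Irgb6), carry the canonical GKS sequence in their nucleotide-binding loop and load onto the vacuole. The regulators, Irgm1, Irgm2 and Igtp (Irgm3), have GMS in its place, sit on host membranes and keep the effectors inactive there. In a tumour, IRG transcripts can come from cancer cells and from host cells that respond to interferon, and bulk RNA cannot tell fewer cells of a type from less RNA per cell.

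The upstream sequences are shown because interferon-activated factors bind 2 known elements, the ISRE (bound by IRFs, among others) and the GAS (named for activation by interferon-gamma), and because the members moved together across the tumours. Promoters from RefSeq (build GRCm38.p6), 250 bases before to 50 after the annotated start, were given for 5 of the 6 members. They were searched on both strands for an ISRE core (GAAA, any 2 bases, GAAA) and for TTCNNNGAA as a GAS. The stretches that hold the matches read as follows, 5′ to 3′ on the strand of the gene, with the matched bases in capitals.
Irgm1 (chr11:48871421-48871470, minus strand): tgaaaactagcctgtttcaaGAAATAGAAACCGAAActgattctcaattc
Irgm2 (chr11:58214882-58214942, plus strand): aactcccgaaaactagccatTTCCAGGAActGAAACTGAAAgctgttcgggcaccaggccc
Igtp (chr11:58199491-58199551, plus strand): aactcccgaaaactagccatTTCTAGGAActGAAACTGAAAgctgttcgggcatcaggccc
Tgtp1 (chr11:48992294-48992354, minus strand): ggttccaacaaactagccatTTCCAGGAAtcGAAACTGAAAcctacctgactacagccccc
Tgtp2 (chr11:49064253-49064313, minus strand): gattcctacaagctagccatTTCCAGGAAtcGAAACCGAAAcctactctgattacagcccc
The ISRE core was found in 5 of 5 member promoters and the GAS in 4 of 5. Of all 32851 RefSeq promoters of the same length, 3.44% held the ISRE core, 8.30% the GAS and 0.454% both. Of 7 other IRG genes with a promoter given, 3 held the ISRE core and 2 the GAS, and Ifi47 and Gm5431, which also rose, held neither. Of 5 guanylate-binding protein genes with a promoter given, 5 held the ISRE core and 2 the GAS, so the full ISRE count was not particular to the members. In Irgm2, Igtp, Tgtp1 and Tgtp2 the GAS match lay 2 bases before the ISRE match, and the ISRE match started 64, 34, 77 and 70 bases before the annotated start. Gm12185, 1 of the other IRG genes, held the same arrangement, with its ISRE match starting 75 bases before the start. The arrangement was therefore not particular to the members. Irgm1 held a pair of ISRE matches that overlap each other, starting 30 and 24 bases before the start, and no GAS match in the window. A match of letters is a description and does not show that a factor binds there.

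The longer stretch before the start of Igtp and of Irgm1 shows the surroundings of both arrangements, with and without the GAS letters.
Igtp (chr11:58199306-58199555, plus strand): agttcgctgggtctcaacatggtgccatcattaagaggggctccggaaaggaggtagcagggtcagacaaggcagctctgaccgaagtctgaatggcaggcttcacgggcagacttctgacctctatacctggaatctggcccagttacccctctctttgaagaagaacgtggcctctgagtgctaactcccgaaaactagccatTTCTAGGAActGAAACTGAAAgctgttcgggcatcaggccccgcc
Irgm1 (chr11:48871421-48871670, minus strand): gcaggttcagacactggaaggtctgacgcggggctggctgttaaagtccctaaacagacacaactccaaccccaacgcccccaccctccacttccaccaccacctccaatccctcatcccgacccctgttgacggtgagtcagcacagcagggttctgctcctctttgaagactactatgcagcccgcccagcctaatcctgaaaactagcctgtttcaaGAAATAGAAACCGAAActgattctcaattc
The Igtp and Irgm2 promoters were 92.1% identical over 265 aligned bases, and those of Tgtp1 and Tgtp2 87.7% over 187.

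The deposited values are gene read counts scaled by 1 divisor per library, called normalized reads below, and libraries held 18373748 to 24918174 assigned reads. Gad1, the shRNA target, averaged 291 ± 31.9 normalized reads in NTC tumours, 28.8 ± 19.1 in shA and 29.2 ± 11.3 in shB tumours (SD, n = 3). It was lower in each knockdown library than in each control. Markers of colon epithelium were present in every library, with a sum over 8 genes of 30271 to 58075 normalized reads. A pair of libraries stood apart in ways that touch the results. NTC replicate 1 had the lowest sum of T cell and macrophage markers, and shA replicate 1 had 6.60% of its reads on mitochondrial genes against 0.491% to 1.49% in the others. Results are therefore also given without them.

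Expression of the IRG genes was higher in Gad1 knockdown tumours than in control tumours. With the mean of both shRNAs compared with NTC, all 3 regulators and 2 of the 3 effectors rose, at an adjusted p under 0.05 in limma over all genes tested. By the same rule 25.0% of all genes were called, 15.5% as higher and 9.49% as lower. The median log2 difference of the members was 2.55, and that of all genes -0.03. Without NTC replicate 1, 2 members were called, Irgm1 and Iigp1, with log2 differences of 1.04 to 2.19 over the members. Over all genes 2005 were called in that fit, 1483 as higher, against 3644 and 2258 in the main fit. Without shA replicate 1, 5 members were called, with a median of 2.87, and 3792 of all genes, 2353 as higher. Without both NTC replicate 1 and shA replicate 1 all 6 members were called, with a median of 1.84, and 2444 of all genes, 1784 as higher. That pair was chosen after seeing the data. It holds the lowest control and the lowest knockdown library for every member, so this count is no independent check. The groups of all 3 replicate sets overlapped for every member but Iigp1, because shA replicate 1 lay at control levels.

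**Figure D1:**
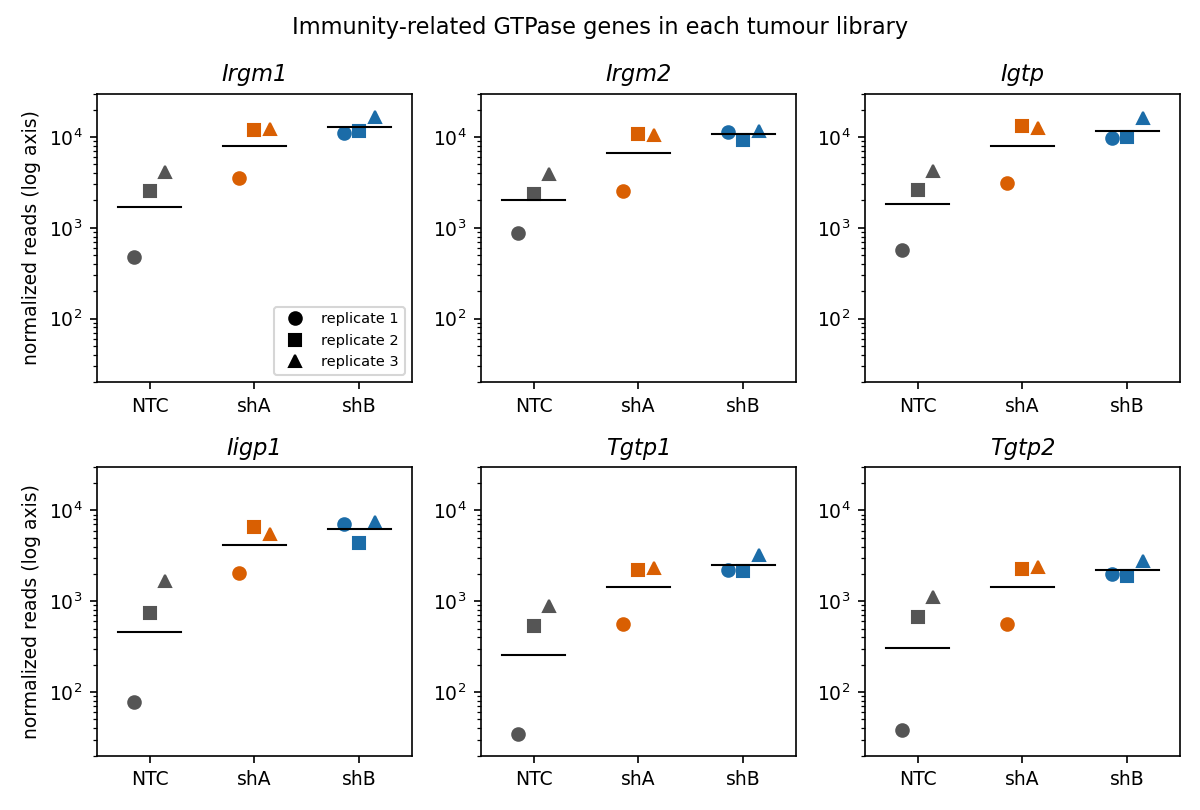
Normalized reads of each IRG gene (log axis) in the 3 tumours of each group, with the symbol giving the replicate number and the line the mean on the log2 scale. NTC replicate 1 is the lowest point in each panel, and shA replicate 1 lies beside NTC replicates 2 and 3, except for Iigp1, where it lies above them.

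Irgm1, a regulator found on Golgi and lysosomal membranes, read 482, 2546 and 4059 normalized reads in NTC replicates 1 to 3. With shA it read 3493, 11918 and 12171, and with shB 11039, 11538 and 16462. Of the knockdown tumours 5 of 6 exceeded every control, and shA replicate 1 lay between NTC replicates 2 and 3. The log2 difference for both shRNAs was 2.56 (SE 0.63), a 5.91-fold increase, and limma gave an adjusted p of 0.0152. It was 1.65 without NTC replicate 1, still called, and the exact two-sided permutation p over 84 assignments of tumours was 0.0238.

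Irgm2, a regulator of the Golgi, read 866, 2365 and 3882 in NTC, 2569, 10790 and 10386 with shA, and 11406, 9254 and 11524 with shB. It had the smallest difference of the members in this comparison, 2.07 (SE 0.53) on the log2 scale or 4.21-fold, with an adjusted p of 0.0180 in limma. Igtp, a regulator of the endoplasmic reticulum, read 570, 2580 and 4253 in NTC, 3120, 13148 and 12488 with shA, and 9745, 9913 and 16042 with shB. Its log2 difference was 2.38 (SE 0.63), 5.22-fold, with an adjusted p of 0.0215 in limma. For both genes the same 5 of 6 knockdown tumours exceeded every control. Neither call held without NTC replicate 1, with log2 differences of 1.47 and 1.54 and adjusted p of 0.0871 and 0.0856 in limma.

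Iigp1, the effector best studied for coating of parasite vacuoles, read 77.7, 750 and 1650 in NTC. It read 2023, 6563 and 5440 with shA, and 7087, 4395 and 7535 with shB. It was the only member for which all 6 knockdown tumours exceeded every control, as held upward for 16.0% of all genes tested. The log2 difference was 3.46 (SE 0.80), 11.0-fold and the largest of the members, and limma gave an adjusted p of 0.0120. An exact two-sided permutation test gave 0.0119, the smallest p that 84 assignments allow. Leaving out NTC replicate 1 gave a difference of 2.19 and a limma adjusted p of 0.0152.

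Tgtp1 and Tgtp2 are neighbouring copies of an effector gene and their counts are uncertain. Their longest coding transcripts in GENCODE M21 differed at 6 of 2810 aligned bases, and 89.4% of the 50-base windows of the Tgtp1 transcript occurred unchanged in Tgtp2. How the submitters' counting treated reads that match both is not stated in the sources used here. Of the other members, 12.3% of the windows of Igtp, 7.36% of those of Irgm2, 3.19% of those of Iigp1 and 0.995% of those of Irgm1 occurred in a transcript of another gene.

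Tgtp1 read 34.9, 528 and 879 normalized reads in NTC, 566, 2234 and 2318 with shA, and 2225, 2131 and 3257 with shB. The log2 difference for both shRNAs was 2.89 (SE 0.89) with an adjusted p of 0.0396 in limma, and in edgeR on the recovered reads it was 2.12 with an adjusted p of 0.0734. Tgtp2 read 38.3, 676 and 1113 in NTC, 569, 2279 and 2362 with shA, and 1971, 1893 and 2799 with shB. It did not pass, at a log2 difference of 2.53 (SE 0.93, 95% interval 0.46 to 4.60) and a limma adjusted p of 0.0731. Summed into 1 feature, the copies had a log2 difference of 2.71 and a limma adjusted p of 0.0547. Without NTC replicate 1 the log2 differences were 1.47 for Tgtp1 and 1.04 for Tgtp2, with adjusted p of 0.0905 and 0.218 in limma. For each copy, shA replicate 1 lay inside the control range.

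Each shRNA was also compared with NTC on its own, which shows whether the difference rested on 1 of them. With shB, 5 of 6 members rose, against 13.4% of all genes called as higher and 20.4% in either direction. With shA 1 of 6 rose, Iigp1, against 11.4% of all genes as higher and 17.0% in either direction. The shB log2 differences were 2.91 (SE 0.72) for Irgm1, 2.42 (SE 0.61) for Irgm2, 2.65 (SE 0.73) for Igtp, 3.75 (SE 0.93) for Iigp1, 3.29 (SE 1.03) for Tgtp1 and 2.83 (SE 1.07) for Tgtp2. These calls depended on single libraries: 0 of 6 members passed in limma without shB replicate 3, with 5 at an unadjusted p under 0.05. Leaving out shB replicate 2 left 1 call, leaving out NTC replicate 1 left 2, and leaving out NTC replicate 2 left 3. The log2 differences of the members in those fits were 1.33 or more. Over all genes the number called as higher also fell in those fits, from 1958 to 1318, 1337, 1356 and 1577 in the same order. Every shB tumour exceeded every control for every member, as held upward for 22.3% of all genes tested. The shA log2 differences were 2.22, 1.73, 2.12, 3.18, 2.49 and 2.24 in the same order, with adjusted p in limma of 0.0431 for Iigp1 and 0.0623 to 0.172 for the others. Without shA replicate 1, Irgm1, Irgm2 and Igtp passed with shA, at log2 differences of 2.82, 2.41 and 2.80, and Iigp1 had an adjusted p of 0.0514 in limma at 3.70. Over all genes 1338 were called as higher in that fit, against 1662 in the main fit. The shA call of Iigp1 was also lost without NTC replicate 1 or 2, shA replicate 2 or 3, or shB replicate 2 or 3, with adjusted p of 0.0560 to 0.105 in limma. The comparisons share the NTC tumours, and with 3 tumours per group an exact permutation test cannot give a p below 0.1.

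A direct comparison of the shRNAs found no member called, nor any of the 14600 genes in limma (0% called), although 1010 genes had an unadjusted p under 0.05. DESeq2 called 23 genes and edgeR 0. The members lay lower with shA than with shB by 0.53 to 0.80 on the log2 scale. The 95% intervals were wide, from -2.30 to 0.93 for Irgm1 and from -2.16 to 1.10 for Igtp, so the comparison does not show that the shRNAs act alike. Without shA replicate 1, Igtp and Tgtp2 turned to differences of 0.15 and 0.09, with shA the higher.

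**Figure D2:**
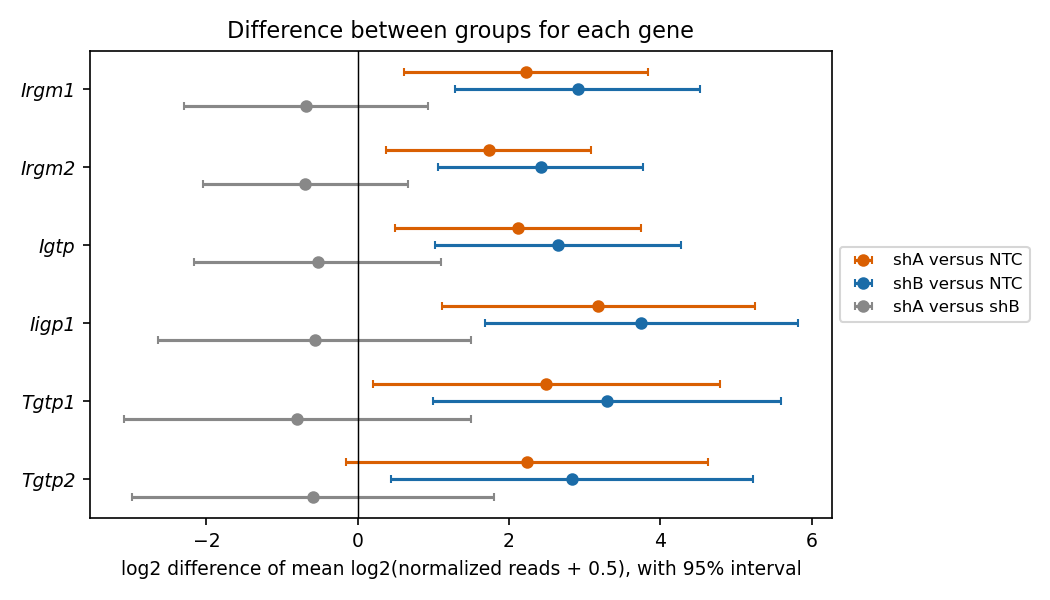
Difference of group means on the log2(normalized reads + 0.5) scale for each IRG gene, with 95% intervals from limma. Points for shB versus NTC lie between 2.42 and 3.75, those for shA versus NTC between 1.73 and 3.18, and the intervals for shA versus shB all include 0.

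The control tumours differed widely among themselves. Between the lowest and the highest NTC tumour, Irgm2 differed 4.48-fold, Igtp 7.46-fold, Irgm1 8.42-fold, Iigp1 21.2-fold, Tgtp1 25.2-fold and Tgtp2 29.1-fold. Within shB the same spread was 1.25-fold to 1.72-fold, and within shA 3.24-fold to 4.21-fold. NTC replicate 1 was the lowest of the 9 libraries for all 6 genes, and shB replicate 3 was the highest for all 6. The low values of NTC replicate 1 rest on 31 recovered reads for Tgtp1, 34 for Tgtp2 and 69 for Iigp1, against 428 to 769 for the regulators. Together the members took 0.0100%, 0.0464% and 0.0783% of assigned reads in NTC replicates 1 to 3, 0.0537%, 0.226% and 0.221% in shA, and 0.227%, 0.192% and 0.275% in shB.

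Levels of different genes were compared per kilobase of the longest coding transcript in GENCODE M21, since longer transcripts give more reads. Per kilobase, every regulator stood above every effector in 9 of 9 libraries, and this also held per kilobase of all annotated exons. On the former scale Igtp had 1220 ± 912 normalized reads per kb in NTC (SD, n = 3), Irgm1 1046 ± 795 and Irgm2 672 ± 427. Iigp1 had 265 ± 253, Tgtp2 217 ± 192 and Tgtp1 170 ± 150 there. In shB tumours the levels per kb were 5885 ± 1775 for Igtp, 5760 ± 1327 for Irgm1, 3041 ± 362 for Irgm2, 2031 ± 544 for Iigp1, 899 ± 221 for Tgtp1 and 790 ± 179 for Tgtp2 (SD, n = 3). The ranges of Igtp and Irgm1 per kb overlapped in each of these groups, as did those of Tgtp1 and Tgtp2. Overlap between tumours does not compare genes of the same library, for which ratios are given below. Tgtp1 had fewer normalized reads than Tgtp2 in every NTC tumour (ratio 0.782 to 0.912) and more in every shB tumour (1.13 to 1.16). The place of Irgm1 depends on the length used, with 407 ± 309 per kb of all exons in NTC.

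Ratios of normalized reads within a library take out library scale. Gene length was not divided out, but it is the same in every library, so a ratio can be compared between libraries. The ratio of Iigp1 to Irgm1 was 0.161, 0.295 and 0.407 in NTC replicates 1 to 3, 0.579, 0.551 and 0.447 with shA, and 0.642, 0.381 and 0.458 with shB. The shA tumours lay above all controls, and shB replicate 2 lay below NTC replicate 3. Igtp stayed close to Irgm1, at 0.859 to 1.18 times its normalized reads in all 9 libraries. The mean log2 level of the effectors less that of the regulators was -3.71 in NTC replicate 1 and between -1.97 and -1.77 in the other 8 libraries, so effectors were below regulators in all 9 libraries, and by the widest margin in NTC replicate 1. These ratios were not tested.

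The share of Tgtp1 in the reads of both copies separated the groups. It was 47.7% in NTC replicate 1 (95% exact binomial interval 35.1% to 60.5%), 43.9% and 44.1% in the other controls, 49.9%, 49.5% and 49.5% with shA, and 53.0%, 53.0% and 53.8% with shB. The intervals of NTC replicates 2 and 3 ended at 46.7% and 46.3%, and those of the shB tumours began at 51.4% or above. The interval of NTC replicate 1, from 65 reads, covers the values of all groups. Intervals cover counting error only, and the split depends on how near-identical reads were assigned.

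**Figure D3:**
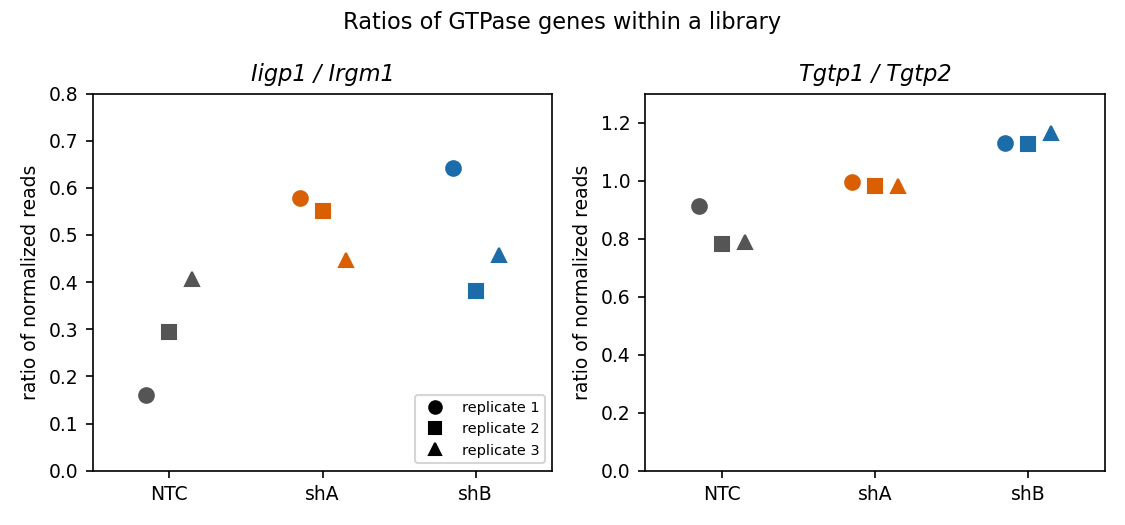
Ratio of normalized reads of Iigp1 to Irgm1 (left) and of Tgtp1 to Tgtp2 (right) in each tumour, with the symbol giving the replicate number. The Tgtp1 to Tgtp2 ratio is 0.782 to 0.912 in NTC, 0.980 to 0.996 in shA and 1.13 to 1.16 in shB, and the Iigp1 to Irgm1 ratio is lowest in NTC replicate 1.

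Other IRG family genes were listed in 10 of 11 cases and all 10 were tested. For the mean of both shRNAs 5 rose, 0 fell and 5 did not pass; with shB alone 5 rose, and with shA alone 1 rose, Gm4841. Ifi47 (Irgd), a further GKS-type IRG, read 98.0, 1086 and 1881 in NTC, 2071, 6044 and 6131 with shA, and 4765, 4563 and 7186 with shB. All 6 knockdown tumours exceeded the controls, and its log2 difference was 3.03 with an adjusted p of 0.0204 in limma. Gm12250 (Irgb10), an effector that also acts on bacteria, rose by 3.30 on the log2 scale, from 31.5, 316 and 571 in NTC to 331, 2546 and 2181 with shA and 2837, 1767 and 3282 with shB. Gm4951, Gm4841 and Gm5431 rose for the mean of both by 3.10, 4.25 and 4.54, the last of these from at most 20.2 normalized reads in NTC. Gm4841 and Gm5431 read 0 in NTC replicate 1, so the size of their differences depends on the constant added before taking logs. With 5 added in place of the main setting, the largest difference among the 10 other IRG genes was 3.23. Gm12185 had a log2 difference of 2.90 (limma adjusted p 0.0574) and did not pass. F830016B08Rik, at 2.59, did not pass either; it read 0, 25.1 and 50.9 in NTC, 10.9, 58.9 and 47.5 with shA, and 395, 36.3 and 42.8 with shB, so its groups overlapped. The paired loci 9930111J21Rik1 and 9930111J21Rik2 had differences of 0.37 and 1.64 that did not pass. Irgq, an IRG-like gene outside the clusters, had -0.05. Without NTC replicate 1, 3 of the 10 rose for the mean of both shRNAs, when 1483 of all genes were called as higher, against 2258 in the main fit.

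In RefSeq order the members lie in 3 groups of IRG genes. Irgm1, Tgtp1 and Tgtp2 share a group on chromosome 11 with Gm5431, Gm12185, both 9930111J21Rik genes and Ifi47; Gm12250, Igtp and Irgm2 form another on chromosome 11; and Iigp1 follows Gm4951, Gm4841 and F830016B08Rik on chromosome 18. Of 15 tested IRG genes in these groups and their flanks, 10 rose for the mean of both shRNAs, and with shA alone Iigp1 and Gm4841 passed. Of 14 tested genes there that are not IRGs, 2 rose and 1 fell. Over all genes 15.5% were called as higher and 9.49% as lower. The counts for the neighbours that are not IRGs lay near those shares. Psme2b, a copy of a proteasome activator gene between Gm12185 and 9930111J21Rik1, rose by 1.43, from 62.0 to 130 normalized reads in NTC to 158 to 336 in knockdown tumours. Smim3, beside Iigp1, rose by 1.80, and Trim41, near Irgm1, fell by 0.27 on the log2 scale. Rack1, Cnot8, Mrpl22, Zfp692, Zfp672, Sh3bp5l and Dctn4 had log2 differences between -0.15 and 0.03 that did not pass. Nor did Olfr56, beside Ifi47, at 1.86 (adjusted p 0.209 in limma), Gemin5 at -0.49, Rbm22 at -0.26 and Trim7 at 0.21. Olfr56 read 3.38, 60.2 and 99.8 in NTC, 17.4, 157 and 114 with shA, and 152, 114 and 225 with shB.

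**Figure D4:**
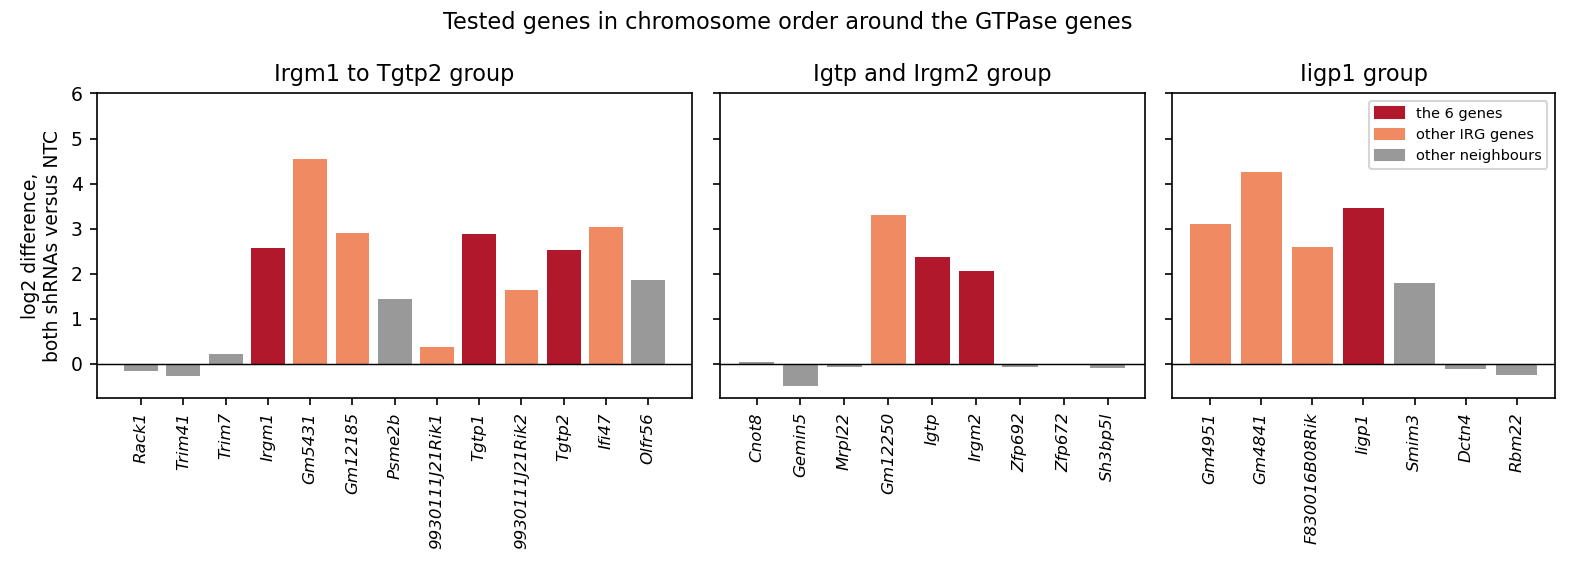
Log2 difference for both shRNAs versus NTC of the tested protein-coding genes around the IRG genes, in RefSeq chromosome order with equal spacing. The 6 members (dark red) and most other IRG genes (orange) stand at 1.64 to 4.54, apart from 9930111J21Rik1 at 0.37, and 11 of the 14 other neighbours (grey) lie between -0.49 and 0.21.

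The signalling chain that switches IRGs on was described from lists of its genes. Of 12 interferon-gamma pathway genes 8 rose and 0 fell for the mean of both shRNAs, and 7 rose with each alone. Over all genes 15.5% were called as higher for the mean of both, 11.4% with shA and 13.4% with shB. Without shA replicate 2 or 3, 5 of the 12 rose with shA alone. Without shB replicate 3, 5 rose with shB alone. Ifng, the ligand made by T and NK cells, read 0, 2.01 and 16.3 normalized reads in NTC, 35.9, 44.9 and 63.9 with shA, and 34.8, 15.7 and 38.3 with shB. Its level was low throughout, and shB replicate 2 lay just below NTC replicate 3; the log2 difference was 3.72 and the limma adjusted p 0.0163. The transcription factor gene Irf1, which drives IRG promoters, read 228, 1008 and 1460 in NTC, 2535, 4735 and 3984 with shA, and 3300, 3074 and 4756 with shB. Its log2 difference was 2.39 with an adjusted p of 0.00717 in limma. For Irf1 shA replicate 1 exceeded every control, unlike for 5 of the 6 IRG members. Ciita, the MHC class II activator, rose by 3.66 or 12.7-fold, while the phosphatase gene Ptpn2 and the kinase gene Jak1 had log2 differences of -0.07 and 0.15 that did not pass.

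Of 7 tested type I interferon signalling genes 4 rose and 0 fell for the mean of both shRNAs, with 4 rising with shB alone and 3 with shA alone. Irf7 rose by 2.99 and Stat2, part of the ISRE-binding complex, by 1.28 on the log2 scale. The receptor gene Ifnar1 and the transcription factor gene Irf3 had differences of 0.00 and 0.06 and did not pass. All 11 guanylate-binding protein genes, GTPases that work with IRGs at the vacuole, rose for the mean of both shRNAs and with shB alone. With shA alone 8 rose, and Gbp2, Gbp3 and Gbp7 did not pass. These counts also depended on single libraries. With shB alone, 8 rose without shB replicate 2 and 6 without shB replicate 3. With shA alone, 4 rose without shA replicate 2 or 3. Over all genes fewer were also called as higher in those fits, 1337 and 1318 for shB and 1437 and 1268 for shA. For the mean of both, log2 differences ran from 2.41 for Gbp7 and 2.51 for Gbp9 to 4.65 for Gbp10 and 6.08 for Gbp2b. Gbp2b read 0 in NTC replicate 1, so the size of its difference depends on the constant added before taking logs. With 5 added in place of the main setting, the largest difference of this list was 4.65, and all 11 genes still rose. Of 16 genes of autophagy and ubiquitin, whose products help to place IRGs and GBPs on membranes, 2 rose and 0 fell for the mean of both shRNAs, with a list median of 0.09. That count lies near the share of all genes called as higher, 15.5%. Trim21, a ubiquitin ligase gene, rose by 1.23 and Rabgef1, an exchange factor for a Rab GTPase, by 0.42, whereas Traf6 and Ulk1 had -0.43 and -0.30 and did not pass. Neither Trim21 nor Rabgef1 was called without NTC replicate 1, when 0 genes of this list passed in limma and 1 had an unadjusted p under 0.05. In the main fit with shA alone, Ulk1 fell by 0.62 (adjusted p 0.0462 in limma) and Rabgef1 rose by 0.43.

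The genes most like the members were sought by the root mean square difference between a gene's centred log2 profile and the members' mean profile over the 9 libraries, among 12983 genes with a mean of at least 40 normalized reads. Gbp3 was nearest, at 0.231, followed by Batf2 (0.261), an interferon-induced factor of the AP-1 family, Ifi47 (0.289), Oasl2 (0.307) of the oligoadenylate synthetase family, and Nlrc5 (0.349), the MHC class I activator. The median over those genes was 1.69, and the members themselves lay at 0.170 for Irgm1 to 0.496 for Irgm2. Each member is part of the mean profile, which shortens its distance. The members' distances are therefore not on a par with those of the other genes. Gbp3 read 116, 1126 and 1719 in NTC, 1967, 6206 and 5779 with shA, and 5980, 5003 and 8037 with shB.

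Most T cell, macrophage and dendritic cell markers moved with the IRG genes between groups, though not in every library. Over all genes 15.5% were called as higher for the mean of both shRNAs, 11.4% with shA alone and 13.4% with shB alone. The sum of 7 T cell markers, all 7 of which rose for the mean of both shRNAs and with each alone, was 43.9 to 286 normalized reads in NTC, 1484 to 4377 in shA and 1131 to 1316 in shB. The sum of 8 macrophage markers, all 8 of which rose for the mean of both shRNAs and 7 with shA alone, was 1372 to 3219 in NTC, 16890 to 24726 in shA and 12806 to 17870 in shB. The pan-leukocyte gene Ptprc read 51.8, 175 and 279 in NTC, 2792, 1165 and 985 with shA, and 1648, 835 and 931 with shB. In NTC the lowest T cell and macrophage sums were those of replicate 1, as for the IRG genes. In shA replicate 1 the order was opposite: it had the highest T cell sum (4377), macrophage sum (24726) and Ptprc level of all 9 libraries and the lowest IRG levels of the 6 knockdown tumours. Most of its macrophage sum was C1qa, C1qb and C1qc. Adgre1 and Csf1r were higher in shB replicate 1, at 745 and 2224.5 against 672 and 2184 in shA replicate 1. Cd14 was lower in shA replicate 1, at 139, than in shA replicate 2 or shB replicates 2 and 3. The same library, shA replicate 1, had the highest sum of 4 endothelial markers, at 7238 against 1625 to 2764 elsewhere, and a B cell marker sum of 1319 against at most 42.6. The sum of 4 NK cell markers was 54.2 to 68.1 in NTC, 144 to 234 in shA and 114 to 164 in shB. Of the 2 that were tested 1 rose for the mean of both shRNAs. The sum of 5 dendritic cell markers was 151 to 409, 1874 to 2953 and 1461 to 2515. Most of it was Itgax, with means of 197, 1960 and 1587. Of these 5 markers 4 rose for the mean of both shRNAs, and Zbtb46 did not pass, at 0.41. The sum of 4 fibroblast markers, most of it Col1a1 and Col1a2, was 5537 to 8652, 9528 to 16809 and 10195 to 23101. Of these 3 rose for the mean of both shRNAs, and Pdgfra did not pass, at -0.44. The 4 neutrophil markers listed summed to at most 237 in any library. Of 3 tested, Csf3r rose by 1.84 for the mean of both shRNAs. S100a8 and S100a9 had log2 differences of -0.67 and -0.88 and did not pass. The 1 B cell marker tested, Cd79a, did not pass either, at 0.46. The sum of 5 skeletal muscle markers ran from 84.4 to 230 in NTC, 86.0 to 1325 in shA and 108 to 5684 in shB. No marker listed in the files was at 0 in all libraries. The part of these cells in the IRG differences was not tested.

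**Figure D5:**
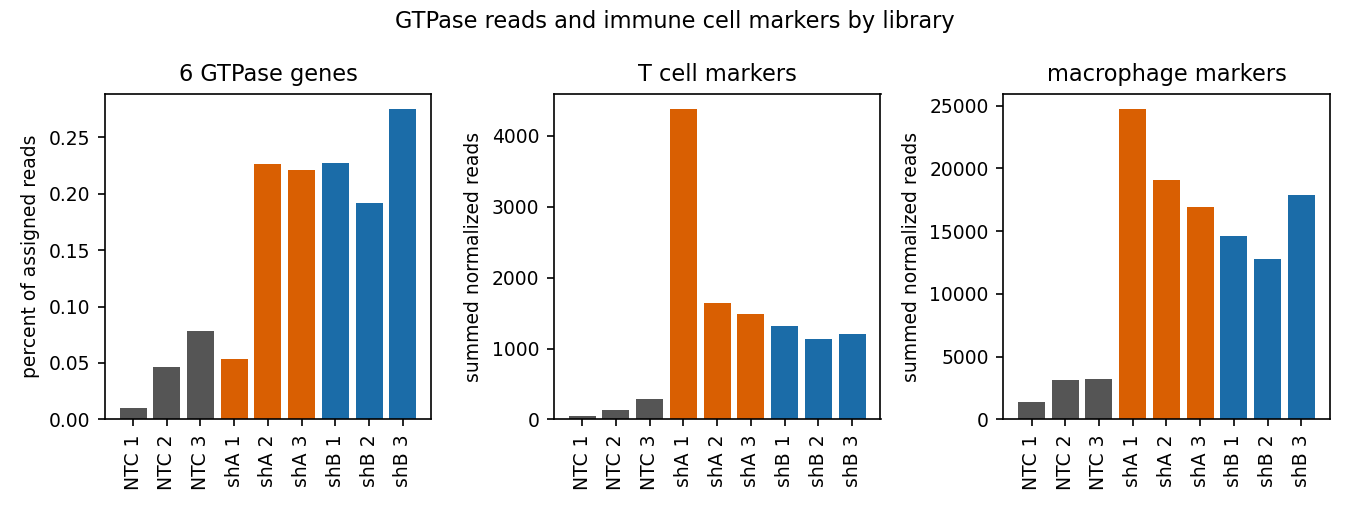
Percent of assigned reads on the 6 IRG genes (left), and summed normalized reads of 7 T cell (middle) and 8 macrophage markers (right), in each of the 9 libraries. In shA replicate 1 the IRG share, 0.0537%, is the lowest of the knockdown libraries, and the T cell and macrophage sums, 4377 and 24726, are the highest of all.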

How the data were processed

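RNA-seq libraries of 9 tumours were made with a NEBNext Ultra kit and sequenced on a NovaSeq, per the labels' protocols. The deposited values are a signal, gene read counts scaled by 1 divisor per library, as read from the values: in each library 100% equalled a whole number times its lowest nonzero value (tolerance 0.001). The submitters' processing notes name Cuffdiff 2.2.1 and the build mm9 with no role. Aligner, counter, strand setting and annotation: not given in the sources used here. Overlapping and near-identical genes are therefore uncertain.

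The test was limma 3.58.1 in R 4.3.3 on log2(value + 0.5), trended prior, 1 mean per group over all 9 libraries, Benjamini-Hochberg adjustment, on genes with at least 20 normalized reads in at least 3 libraries. Fold changes are on that log2 scale. For genes that read 0 in a library, their size depends on the added constant. Alternatives, among them DESeq2 1.42.0 and edgeR 4.0.16 on read counts recovered from the deposited values, are in the closing section. The fit was tested on simulated data. The members, lists, tests and alternatives were chosen with earlier results of these data known. Named genes are the members, all other IRG genes, Ifng, Irf1, the 2 largest and 2 smallest differences of each list, and the 5 nearest profiles; neighbours and marker sums were added afterwards. Irgc1, Ifnb1 and Ly6g are not analysed here, and some items that the rule names are not reported here. Promoters come from RefSeq GRCm38.p6 and transcript lengths from GENCODE M21 (GRCm38), matched by symbol.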

Additional observations from a re-analysis of the deposited data

How the results depend on the processing

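Results that crossed the threshold, turned or moved a count are given here, as log2 differences unless called counts. Leaving out 1 replicate at a time gave counts of called genes of 2005 to 5498 for both shRNAs, 1268 to 3992 for shA, 1835 to 4237 for shB and 0 to 1 for shA against shB. For both shRNAs it gave 1.47 to 2.55 for Irgm2, 1.54 to 2.99 for Igtp, 1.47 to 3.79 for Tgtp1 and 1.04 to 3.46 for Tgtp2. Tgtp1 lost its call for both shRNAs without NTC replicate 1 or 2, shA replicate 2 or 3, or shB replicate 2 or 3. For shA leaving out 1 replicate gave 1.31 to 2.85 for Irgm1, 1.12 to 2.41 for Irgm2, 1.27 to 2.80 for Igtp and 1.90 to 4.10 for Iigp1. For shB it gave 1.99 to 3.53 for Irgm1, 1.82 to 2.90 for Irgm2, 1.80 to 3.25 for Igtp, 2.47 to 4.67 for Iigp1, 1.87 to 4.19 for Tgtp1 and 1.33 to 3.75 for Tgtp2. For shA less shB it gave -0.66 to 0.29 for Gad1, -0.89 to 0.15 for Igtp and -0.94 to 0.09 for Tgtp2.

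Array weights, which ended with a warning on convergence, gave counts of 8819, 6063, 9847 and 1396 for the 4 comparisons. They made Tgtp2 pass at 1.72 for both shRNAs and 1.63 for shB, and Irgm1, Irgm2, Igtp and Tgtp1 at 2.14, 1.92, 2.13 and 2.11 for shA. They turned shA less shB to 0.06 for Irgm2, 0.23 for Igtp, 0.27 for Iigp1 and 0.18 for Tgtp2. Without the first replicate of every group the counts were 6361, 3930, 6526 and 13. Tgtp2 then passed at 1.41 for both shRNAs, 1.42 for shA and 1.41 for shB, and Irgm1, Irgm2, Igtp and Tgtp1 at 1.91, 1.80, 1.95 and 1.74 for shA. The difference of shA less shB was 0.11 for Gad1, 0.04 for Irgm2, 0.02 for Igtp, 0.05 for Iigp1 and 0.01 for Tgtp2. Without NTC and shA replicates 1 only, chosen after seeing the data, the shA count was 1301. Tgtp2 passed at 1.38, 1.42 and 1.33 for both, shA and shB, the other 4 again at 1.91, 1.80, 1.95 and 1.74 for shA, and shA less shB turned to 0.29 for Gad1, 0.15 for Igtp and 0.09 for Tgtp2.

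Some calls were lost with no change in direction. Without a trended prior these were Tgtp1 at 2.89 for both shRNAs, Iigp1 at 3.18 for shA, and Igtp at 2.65 and Tgtp1 at 3.29 for shB. In edgeR they were Tgtp1 at 2.12 for both and 2.41 for shB, and Iigp1 at 2.51 for shA. With Tgtp1 and Tgtp2 summed, the sum missed at 2.71 for both and 3.06 for shB. Iigp1 for shA and Tgtp1 for shB missed at 3.12 and 3.31 with scaling by library total, and at 3.18 and 3.29 when only the groups compared were fitted. DESeq2 called Irgm1 at 1.96 and Irgm2 at 1.74 for shA, lost Tgtp1 at 2.40 for shB, and called 23 genes between the shRNAs. The cause of these changes was not tested.

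The replicate numbers share no stated source, so libraries of the same number were not treated as pairs. Deviations from the group means had correlations of -0.34 to 0.06 between same-numbered libraries. Between differently numbered ones they were -0.24 to 0.39. Deviations within a group of 3 constrain each other, so these correlations cannot decide whether libraries were paired. With a replicate block, Tgtp2 passed at 2.53 for both shRNAs and 2.83 for shB, and Irgm1, Irgm2 and Igtp passed at 2.22, 1.73 and 2.12 for shA. The block gave 2921, 1778 and 2376 called genes. With 3 libraries per group and 31 to 69 reads for each effector in NTC replicate 1, the size of the effector differences is the least certain.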
